A study of Homo sapiens with 16 samples.

Results

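Translational efficiency, the number of ribosome footprints on an mRNA relative to its amount, was compared between senescent and young human lung fibroblasts that had not been heat shocked. The comparison covered every gene expressed in both assays: of 19201 genes listed in the footprint and in the RNA table, 11166 passed a filter on low counts in both and were tested. The cells were WI-38, a fibroblast line with a limited number of divisions, labelled senescent at passage 36 and young at passage 24. Both states were starved of serum for 24 h and given serum again for 24 h before the harvest, so the controls shared that treatment. Transcript amounts came from RNA-seq. Ribosome footprints came from Ribo-seq, which sequences the stretch of mRNA that a ribosome shields from nuclease. There were 2 libraries for each state and assay, 8 in all, among 16 libraries that also held heat-shocked cells. The labels do not say whether the libraries of a group came from separate cultures, so p-values measure only the spread between these samples.

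A ribosome initiates at a start codon, translates the coding sequence and is released, and its footprints therefore report how much of an mRNA is being translated. The ratio of footprints to mRNA rises when initiation is faster and also when ribosomes move more slowly, and it cannot separate them. Fibroblasts that reach replicative senescence leave the cell cycle for good while they stay metabolically active and secrete matrix and signalling proteins.

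The 4 resting footprint libraries held 4581141 to 9104077 counts and the 4 resting RNA libraries 26578703 to 37126871. All 10 fibroblast markers were expressed, between 19.6 CPM for FAP in 1 senescent RNA library and 9652 CPM for COL1A1 in 1 senescent footprint library (CPM, counts scaled to the effective size of the library). The blood markers CD3E and HBB, the endothelial marker CDH5 and the epithelial marker SFTPC had 0 counts in all resting libraries. Other markers of these cell types were expressed. The epithelial keratin KRT19 reached 88.4 CPM, the endothelial marker TEK 67.8 CPM and the macrophage marker CD68 154 CPM. The young footprint libraries were closer to each other than any other pair of replicates, with a chi-square of 1.73 per gene against 17.2 to 105 in the other 7 groups. A value near 1 is what sampling of counts alone gives. If these libraries are not separate samples, which the labels leave unsaid, every footprint and efficiency p-value given below could be too small. Senescent footprint replicate 1 stood apart from replicate 2 for genes of dividing cells. In replication and mitosis genes the mean log2 CPM of footprints was 3.21 and 4.31 in the senescent libraries, against 4.98 and 5.03 in the young ones.

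Relative to the bulk of genes, the measured efficiency difference between senescent and young cells was small for most genes. The difference, senescent minus young on a log2 scale, had a median of −0.01 over the 11166 genes, with quartiles at −0.24 and 0.23. Libraries were scaled within each assay, which centres the changes near 0. A shift of efficiency shared by all genes could therefore not appear in these values. With edgeR's quasi-likelihood test and an adjusted p under 0.05, 0 genes were higher and 1 was lower in senescent cells, which is 0.00896% of genes tested. DESeq2 called 5 genes. At an unadjusted p under 0.05 there were 87 genes, 32 higher (0.287%) and 55 lower (0.493%). With senescent footprint replicate 2 left out the count of calls was 21, and with any 1 of the 4 heat-shocked footprint libraries left out it was 3.

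Footprints alone were called for 15 genes higher (0.134% of genes tested) and 13 lower (0.116%) in senescent cells, 0.251% in all. RNA alone was called for 8 genes higher (0.0716%) and 5 lower (0.0448%), 0.116% in all. The footprint count was 0 without either of the young footprint libraries, 2 without senescent footprint replicate 1 and 297 without senescent footprint replicate 2. The RNA count was 1 or 2 without any of the 4 resting RNA libraries. With the replicate number added to the model within each assay, footprints were called for 155 genes higher and 104 lower. RNA was then called for 79 higher and 62 lower. The labels do not say what that number marks, and the model without it was kept for the other results. Across the 11166 genes the footprint change and the RNA change had a Pearson correlation of 0.543 and a Spearman correlation of 0.520, both between the same 2 states and so without a test. The 9 genes called in both assays had the same sign in both, and their efficiency differences ranged from −0.33 to 0.81. CCND2, which encodes cyclin D2, was the clearest of them among senescence markers. Its footprints were 43.4 and 30.5 CPM in senescent cells, against 4.22 and 4.28 CPM in young cells, and its RNA was 30.6 and 19.4 CPM in senescent cells, against 3.05 and 2.92 CPM in young cells. The groups were apart in both assays, footprints rose by 3.12 ± 0.42 (SE, edgeR adjusted p = 0.00962) and RNA by 3.06 ± 0.40 (adjusted p = 0.00896), and the efficiency difference was 0.05 ± 0.55.

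**Figure D1:**
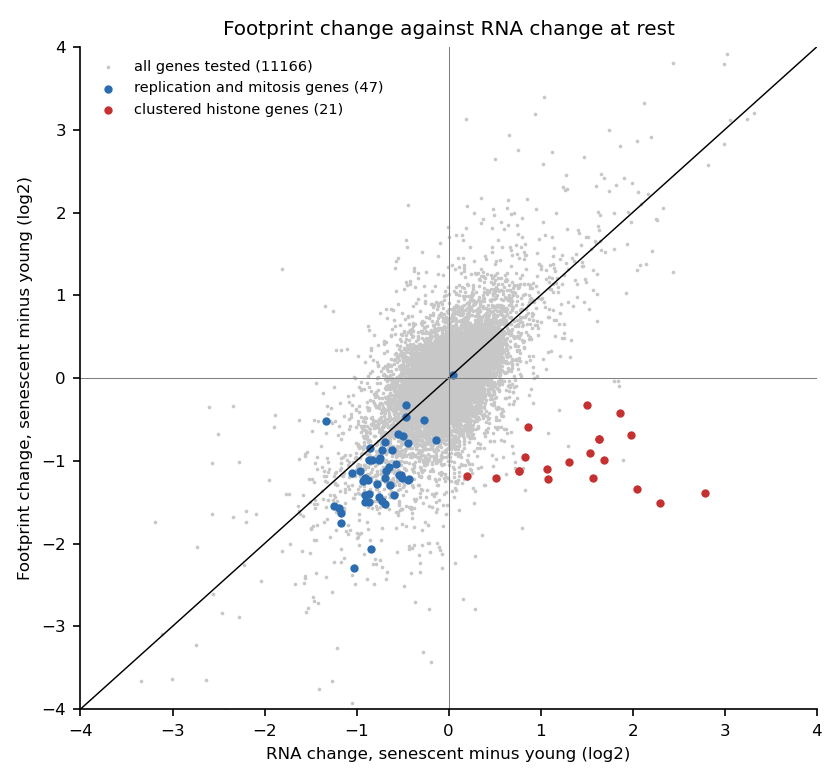
Footprint change (y axis) against RNA change (x axis), both log2 senescent minus young at rest, for 11166 genes in grey, 47 replication and mitosis genes in blue and 21 clustered histone genes in red; the diagonal marks equal change. Most blue points lie at lower left, near or under the diagonal, and red points lie at lower right, with footprints lower and RNA higher. A total of 33 genes, 1 of them the histone gene HIST1H4J, lie outside the axes at 4.

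The 1 called gene was BOLA2B, one of a pair of near-identical genes for an iron-sulfur cluster chaperone. It had 73 and 41 RNA counts in senescent cells, against 0 and 0 counts in young cells, and 88 and 139 footprint counts in senescent cells, against 178 and 209 in young cells. The footprint counts of its copy BOLA2 were the same numbers in every resting library, while BOLA2 RNA counts were 707 and 725 in senescent cells, against 825 and 656 in young cells. With genes that share reads summed into 1 unit, edgeR called 0 genes for efficiency. BOLA2B had an edgeR adjusted p of 0.00212, and no fold is given because its young RNA libraries were at 0.

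Other genes at the smallest p-values also share sequence with a neighbour or copy. BIVM-ERCC5, a read-through of neighbouring genes, had 39 and 108 footprint counts in senescent cells, against 0 and 0 in young cells. TICAM2, an adaptor of Toll-like receptor signalling, had 0 and 0 footprint counts in senescent cells, against 81 and 120 in young cells, and the read-through TMED7-TICAM2 had 562 and 109 in senescent cells, against 87 and 57 in young cells. EIF3CL, a copy of the initiation factor gene EIF3C, had 200 and 74 RNA counts in senescent cells, against 0 and 2 in young cells. For these genes the tables do not hold enough to say which copy the reads came from, and no fold is given.

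The largest shift of a gene group was in the replication-dependent histone genes. These genes encode the core and linker histones that package new DNA, and most of their mRNAs end in a conserved stem-loop in place of a poly(A) tail. The stem-loop is bound by SLBP, which promotes processing and translation of the mRNA, and histone mRNA is made mainly during S phase. The element is shown for 6 of the genes described next, since mRNAs that end in it lack the tail by which some kits select RNA. The labels name the TruSeq RNA kit and do not say whether poly(A) RNA was selected, and its part in the values was not tested. The motif, GGNNCTT followed without a gap by NTNAG and NNCC and searched on the transcript strand of coding transcripts in GENCODE 29 (build GRCh38), was found in 29 of 68 clustered histone genes (42.6%) and in 110 of 19669 coding genes (0.559%). The 68 are genes whose symbols start with HIST1H, HIST2H or HIST4H, and HIST3H genes were left out of the 29 and the 68. Capitals mark the motif, with 5 bases of flank on each side, 5′ to 3′ on the transcript strand.
HIST1H2BD, chr6:26158582-26158607, plus strand: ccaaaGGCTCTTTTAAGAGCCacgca
HIST1H2BC, chr6:26123467-26123492, minus strand: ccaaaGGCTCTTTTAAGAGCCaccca
HIST1H2AC, chr6:26124664-26124689, plus strand: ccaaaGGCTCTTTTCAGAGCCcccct
HIST1H4H, chr6:26285126-26285151, minus strand: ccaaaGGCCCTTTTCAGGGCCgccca
HIST1H3H, chr6:27810511-27810536, plus strand: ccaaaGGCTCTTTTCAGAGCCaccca
HIST2H2AA3, chr1:149842218-149842243, minus strand: caaaaGGCTCTTTTCAGAGCCaccca
The annotated transcripts run on past the motif, by 18 bases in the shortest transcript of HIST1H4H and by 1114 bases in HIST1H2AC. A match is a description of the annotated transcript and does not say which 3′ end these cells made.

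Of 25 replication-dependent histone genes listed, all were in the tables and 13 passed the filter. Efficiency was below 0 for all 13, with a median of −2.38, and 12 of them had an unadjusted p under 0.05, against 0.493% of all genes in that direction. None passed the adjusted threshold, which 0.00896% of all genes passed. Footprints had a median change of −1.01 and RNA a median change of 1.57, so the assays went in opposite directions. In 12 of the 13 both senescent footprint libraries were below both young ones, a pattern seen in 26.8% of all genes, and in 12 of the 13 both senescent RNA libraries were above both young ones, a pattern seen in 17.1% of all genes. HIST1H3H had 11 and 8 RNA counts in senescent cells, against 3 and 0 in young cells. The median was −2.38 also with that gene at a bound of 3 counts, and −2.35 without it. The filter could be met through a single group, so a gene could enter through the state in which its RNA was higher. HIST1H3H did not meet it through its young resting RNA. The counts out of 13 therefore describe the genes that entered and are no test. In bulk libraries, a different share of cells in S phase and a different amount of histone mRNA or footprints per cell cannot be told apart.

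HIST1H2BD, a gene for histone H2B, had the smallest p in the group and was chosen for description after its values were seen. Its footprints were 95.2 and 133 CPM in senescent cells, against 227 and 226 CPM in young cells, and its RNA was 11.01 and 8.98 CPM in senescent cells, against 3.46 and 2.72 CPM in young cells. The groups did not overlap in either assay, with senescent cells low in footprints and high in RNA. The efficiency difference was −2.68 ± 0.55 (SE, n = 2 per group and assay; edgeR adjusted p = 0.512). DESeq2 gave an adjusted p of 0.0103, and edgeR on the 8 resting libraries alone gave 0.0451. The gene was not called with limma voom, with limma on log2(TPM + 1) or with edgeR after removal of the GC trend alone.

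HIST1H2BK, a second H2B gene, was the most abundant of the group in RNA. Its RNA was 75.5 and 77.7 CPM in senescent cells, against 28.0 and 25.9 CPM in young cells, and its footprints were 163 and 278 CPM in senescent cells, against 284 and 267 CPM in young cells. The RNA groups were apart and the footprint groups overlapped, since senescent replicate 2 lay between the young libraries. Its efficiency difference was −1.83 ± 0.47.

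HIST1H1C encodes the linker histone H1.2. Its footprints were 110 and 254 CPM in senescent cells, against 361 and 373 CPM in young cells, and its RNA was 47.96 and 27.5 CPM in senescent cells, against 22.2 and 8.12 CPM in young cells. The groups did not overlap, though the RNA replicates lay far apart within each state, and the efficiency difference was −2.32 ± 0.88. HIST1H2AC, a histone H2A gene, had 109 and 186 CPM of footprints in senescent cells, against 203 and 194 CPM in young cells, and 12.7 and 10.7 CPM of RNA in senescent cells, against 2.51 and 3.98 CPM in young cells. It had no overlap in either assay and an efficiency difference of −2.28 ± 0.76.

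The genes with the lowest RNA levels followed the same order of groups. HIST1H4H, for histone H4, had 60.0 and 152 CPM of footprints in senescent cells, against 238 and 251 CPM in young cells, with RNA at 1.23 and 1.15 CPM in senescent cells, against 0.450 and 0.332 CPM in young cells. HIST1H2BC had 74.9 and 165 CPM of footprints in senescent cells, against 227 and 220 CPM in young cells, with RNA at 2.76 and 1.98 CPM in senescent cells, against 1.09 and 0.497 CPM in young cells. In all 4 sets of values senescent cells were low in footprints and high in RNA, and the efficiency difference was −2.78 ± 0.94 for HIST1H4H and −2.44 ± 0.90 for HIST1H2BC. HIST2H2AA3 and HIST2H2AA4 are identical copies with the same counts in every resting library, 63.3 and 109 CPM of footprints in senescent cells, against 147 and 141 CPM in young cells. Their RNA was 8.80 and 8.51 CPM in senescent cells, against 2.70 and 2.85 CPM in young cells, and the efficiency difference was −2.38 ± 0.70 for the sequence they share.

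**Figure D2:**
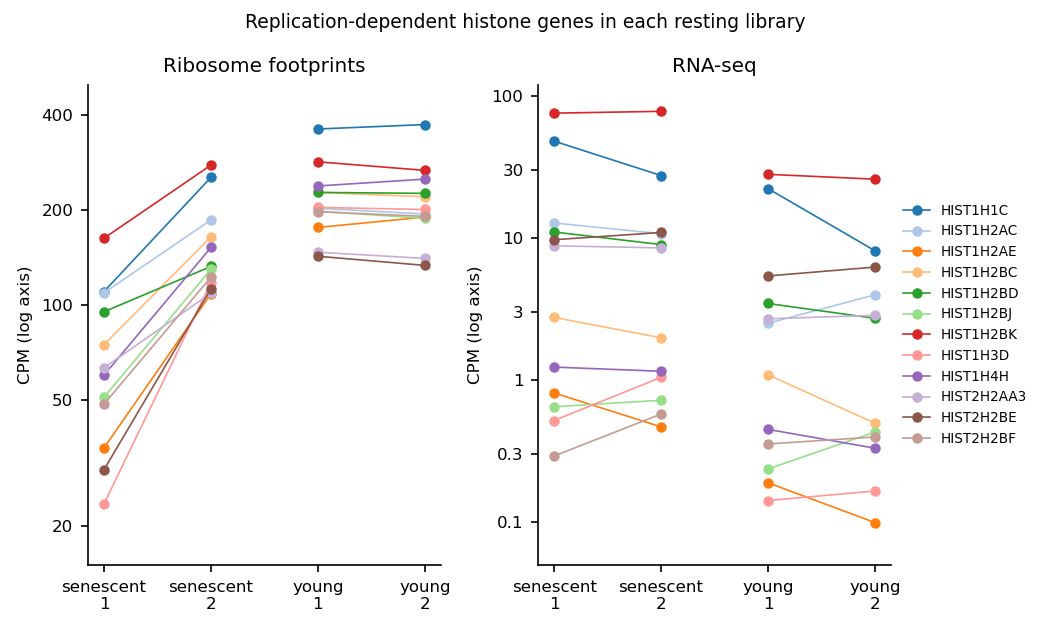
Footprint CPM (left panel) and RNA CPM (right panel), on log axes, for 12 replication-dependent histone genes in the senescent and young resting libraries; lines join the replicates of a state and each colour is a gene. Senescent footprint replicate 1 is the lowest library for each gene shown, while senescent RNA lies above young RNA for each gene except HIST2H2BF, whose groups overlap.

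Most clustered histone genes could not be tested, because their RNA counts were near 0. The tables held 70 genes whose symbols place them in the histone clusters, and 49 did not pass the filter. Among those 49 the highest count in a resting footprint library was 3711 and the highest in a resting RNA library was 11, and 14 of them had 0 RNA counts in all 4 resting libraries. HIST1H3B, a histone H3 gene, had 220 and 985 footprint counts in senescent cells, against 3076 and 3711 in young cells, with 0 and 1 RNA counts in senescent cells, against 0 and 1 in young cells. Of the 67 family members with any count, 66 had more footprint counts than RNA counts over the resting libraries (98.5%), although the RNA libraries were deeper, while this held for 3.38% of all genes with a count.

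Summed over the family, histone genes took 0.244% and 0.661% of footprint counts in senescent cells, against 1.05% and 1.07% in young cells. In RNA the family took 0.0203% and 0.0174% of counts in senescent cells, against 0.00834% and 0.00653% in young cells. The footprint share was lowest in senescent replicate 1, and neither assay had overlapping groups. Per length, the ratio of footprint TPM to RNA TPM (TPM, a relative abundance that corrects for gene length) had a median of 30.6 in senescent cells and 158 in young cells over the 13 tested genes, where over all genes it was 0.948 in senescent cells and 0.859 in young cells.

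The 21 tested members of the family had a median efficiency difference of −2.31, with 20 below 0. They passed the same filter, so the same limit on entry holds for them. The exception was HIST1H4J, which had 0 RNA counts in both senescent libraries, so no fold is given. Among the 21, HIST2H2AA3 and HIST2H2AA4 had the same counts in every resting library, as did HIST2H4A and HIST2H4B. Each pair therefore repeats 1 measurement. The 15 tested members with a motif match had a median of −2.38 and the 6 without one a median of −2.23. A missing match describes only the annotated transcript, and HIST3H genes were left out of the matching. These medians therefore do not say what part the stem-loop has in the values. The median of the 13 genes was −1.98 without senescent footprint replicate 1, −3.03 without senescent footprint replicate 2 and −2.87 without young RNA replicate 1. Under heat shock the same 13 genes had a median of −0.94 with 11 below 0, where 47.8% of all genes were below 0. The difference between rest and heat shock was tested per gene, and no histone gene passed, where 0.00896% of all genes did. Replication and mitosis genes were low in the same senescent footprint libraries, and the part of the share of dividing cells in the histone values was not tested.

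Histone genes outside the clusters, most of them for variant histones, were listed after the clustered genes had been seen. The list holds CENPA, the centromeric H3 variant, which is also among the replication and mitosis genes. Of 11 tested, 10 were below 0, with a median of −0.37, and the median was 0.02 without senescent footprint replicate 1. H3F3A, which encodes histone H3.3, had 208 and 256 CPM of footprints in senescent cells, against 300 and 288 CPM in young cells, and 125 and 82.4 CPM of RNA in senescent cells, against 103 and 100 CPM in young cells. Footprints were lower without overlap and the RNA groups overlapped, with an efficiency difference of −0.36 ± 0.43, or −0.036 without senescent RNA replicate 1. H2AFY, for macroH2A, had an efficiency difference of −0.46 ± 0.36 and H3F3B one of −0.16 ± 0.58. SLBP itself had 87.6 and 65.7 CPM of footprints in senescent cells, against 81.1 and 75.7 CPM in young cells, and the efficiency difference was 0.08 ± 0.37.

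Genes of DNA replication and mitosis were lower in senescent cells in both assays, and by more in footprints, though no member passed the test in either. Of all genes, 0.251% passed in footprints and 0.116% in RNA. Of 47 tested, 46 had both senescent footprint libraries below both young ones (26.8% of all genes), with a median change of −1.17, and 22 had this in RNA (17.7% of all genes), with a median of −0.72. Efficiency was below 0 for 44 of the 47, with a median of −0.43 and 0 members at an unadjusted p under 0.05. At that p, 0.493% of all genes were lower and 0.287% higher. GINS2, a subunit of the replicative helicase, had 0.207 and 7.25 CPM of footprints in senescent cells, against 18.0 and 14.4 CPM in young cells, and 7.31 and 10.8 CPM of RNA in senescent cells, against 12.2 and 20.2 CPM in young cells. Its groups were apart in both assays and the efficiency difference was −1.22 ± 0.99. Senescent footprint replicate 1 held 1 count of it, and the difference was −0.32 without that library and −5.40 without senescent footprint replicate 2.

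RRM2, the small subunit of ribonucleotide reductase, had 51.9 and 100.3 CPM of footprints in senescent cells, against 160 and 171 CPM in young cells, and 29.3 and 65.0 CPM of RNA in senescent cells, against 52.9 and 97.9 CPM in young cells. Footprints were apart while RNA overlapped, and the efficiency difference was −0.44 ± 0.91. PCNA, the sliding clamp of DNA polymerase, had an efficiency difference of −0.24 ± 0.43 and CCNB1, for the mitotic cyclin B1, one of −0.79 ± 0.89. The efficiency median of the list rested on single libraries. It was −0.01 without senescent footprint replicate 1, 0.03 without senescent RNA replicate 2 and −0.13 without young RNA replicate 1, and −1.08 without senescent footprint replicate 2, −0.78 without senescent RNA replicate 1 and −0.93 without young RNA replicate 2.

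Parts of the translation machinery stayed close to the bulk of genes. Ribosomal protein mRNAs start with a terminal oligopyrimidine (TOP) tract that couples their translation to mTOR signalling. Of 78 tested, 62 were below 0 in efficiency, where 50.8% of all genes were, with a median of −0.10. They had 0 members at an unadjusted p under 0.05 (0.493% of all genes lower, 0.287% higher). RPL26 had 415 and 427 CPM of footprints in senescent cells, against 546 and 530 CPM in young cells, and 741 and 638 CPM of RNA in senescent cells, against 700 and 641 CPM in young cells. Its footprints were lower without overlap, its RNA overlapped, and the efficiency difference was −0.39 ± 0.26. RPLP1 had an efficiency difference of −0.51 ± 0.39, RPL4 one of −0.08 ± 0.26 and RPL7A one of −0.06 ± 0.25. On the log2(TPM + 1) scale the median of the ribosomal proteins was 0.01, where the median of all genes was 0.09.

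The other TOP mRNAs had a median of 0.03 with 12 of 22 above 0, and EEF1A1, the elongation factor that delivers tRNA, had an efficiency difference of −0.12 ± 0.38. Initiation factors had a median of −0.01 with 22 of 42 below 0. EIF4G3, a scaffold of the cap-binding complex, had an efficiency difference of 0.72 ± 0.49, EIF2B2, a subunit of the exchange factor that recharges eIF2, one of −0.53 ± 0.35, and the helicase EIF4A1 one of 0.16 ± 0.27. Both medians turned sign when single libraries were left out, the TOP mRNAs without senescent footprint replicate 1, senescent RNA replicate 2 or young RNA replicate 1, and the initiation factors without senescent footprint replicate 2, senescent RNA replicate 1 or young RNA replicate 2. With each library left out in turn the ranges were −0.17 to 0.10 for the TOP mRNAs and −0.12 to 0.09 for the initiation factors.

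Nuclear-encoded subunits of oxidative phosphorylation, the mitochondrial machinery that makes ATP, were below 0 for 62 of 76, with a median of −0.15. They had 0 members at an unadjusted p under 0.05 (0.493% of all genes lower, 0.287% higher). Their RNA had a median change of 0.14 and their footprints one of −0.05. UQCRFS1, the iron-sulfur protein of complex III, had 95.6 and 127 CPM of footprints in senescent cells, against 145 and 150 CPM in young cells, and 87.1 and 77.4 CPM of RNA in senescent cells, against 73.8 and 78.2 CPM in young cells. Footprints were apart and RNA overlapped, and the efficiency difference was −0.51 ± 0.30. NDUFC1, a complex I subunit, had an efficiency difference of −0.57 ± 0.32, and the abundant ATP synthase genes ATP5B and ATP5A1 had differences of 0.11 ± 0.26 and 0.07 ± 0.32. Mitochondrial ribosomal proteins had a median of −0.09 with 54 of 76 below 0, among them MRPL53 at −0.60 ± 0.37 and, above 0, MRPL3 at 0.44 ± 0.30.

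Among mRNAs with known translational control, no list had a called member, where 1 of all 11166 genes was called (0.00896%). Some mRNAs carry upstream reading frames that let them escape the block on initiation set by eIF2 phosphorylation, and these had a median of 0.15 with 6 of 10 above 0. The tRNA synthetase gene EPRS had an efficiency difference of 0.28 ± 0.35 and IFRD1 one of −0.34 ± 0.44, and the median was −0.03 without young RNA replicate 1. Iron-responsive elements let iron regulatory proteins block translation of ferritin mRNA and stabilise the mRNA of the transferrin receptor. The list of mRNAs with these elements, which also holds the genes of the iron regulatory proteins, had a median of 0.04 with 5 of 10 above 0. The median was −0.04 without young RNA replicate 1, and the members of the list went apart. FTL, the ferritin light chain, had 166 and 142 CPM of footprints in senescent cells, against 158 and 171 CPM in young cells, and 5757 and 6558 CPM of RNA in senescent cells, against 3735 and 4130 CPM in young cells. Its RNA was higher without overlap and its footprints overlapped, with an efficiency difference of −0.74 ± 0.29.

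FTH1, the heavy chain, had 193 and 175 CPM of footprints in senescent cells, against 212 and 228 CPM in young cells, and 2484 and 2898 CPM of RNA in senescent cells, against 2319 and 2260 CPM in young cells. It was lower in footprints and higher in RNA without overlap, and the efficiency difference was −0.49 ± 0.26. TFRC, the transferrin receptor, had 439 and 290 CPM of footprints in senescent cells, against 189 and 211 CPM in young cells, and 256 and 207 CPM of RNA in senescent cells, against 252 and 165 CPM in young cells. It was higher in footprints while its RNA overlapped, with an efficiency difference of 0.72 ± 0.40. ACO1, iron regulatory protein 1, had an efficiency difference of 0.29 ± 0.27.

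Selenoprotein mRNAs, which read a UGA stop codon as selenocysteine, had a median of −0.31 with 13 of 19 below 0. SELENOW was the 1 member at an unadjusted p under 0.05 (0.493% of all genes in that direction). It is named after its values were seen since it lay under 10 CPM in footprints. Its footprints were 1.87 and 3.88 CPM in senescent cells, against 6.61 and 6.42 CPM in young cells, and its RNA was 74.0 and 64.1 CPM in senescent cells, against 57.0 and 58.6 CPM in young cells. The groups were apart in opposite directions and the efficiency difference was −1.41 ± 0.43. SELENOS, a membrane protein of ER-associated degradation, had an efficiency difference of −0.52 ± 0.27, SELENOM one of −0.89 ± 0.60 and TXNRD1, thioredoxin reductase, one of 0.22 ± 0.29. The median was −0.06 without young RNA replicate 1 and −0.43 without young RNA replicate 2.

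Genes of polyamine metabolism, several of which sense polyamines through frameshifting or an upstream reading frame, had a median of −0.38 with 9 of 10 below 0. They had 0 members at an unadjusted p under 0.05 (0.493% of all genes lower, 0.287% higher). AMD1, which makes the aminopropyl donor for spermidine, had 25.9 and 22.3 CPM of footprints in senescent cells, against 34.1 and 39.9 CPM in young cells, and 133 and 84.6 CPM of RNA in senescent cells, against 139 and 113 CPM in young cells. Its footprints were lower without overlap, its RNA overlapped, and the efficiency difference was −0.41 ± 0.38. ODC1, the first enzyme of the pathway, had an efficiency difference of −0.35 ± 0.69, the spermidine synthase SRM one of −0.30 ± 0.33 and the spermine synthase SMS one of 0.23 ± 0.47.

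Collagen chains had a median efficiency difference of 0.27, the highest among the 36 lists with all libraries in, with 15 of 21 above 0, where 49.2% of all genes were, and a median RNA change of −0.27. The efficiency median was 0.075 without senescent RNA replicate 1. COL4A1, a chain of basement membrane collagen, had 836 and 754 CPM of footprints in senescent cells, against 748 and 684 CPM in young cells, and 594 and 676 CPM of RNA in senescent cells, against 995 and 847 CPM in young cells. RNA was lower and footprints were slightly higher, without overlap in either, and the efficiency difference was 0.69 ± 0.27. COL12A1 had 1252 and 1146 CPM of footprints in senescent cells, against 1861 and 1618 CPM in young cells, and 680 and 722 CPM of RNA in senescent cells, against 1405 and 1219 CPM in young cells. Both assays were lower and the efficiency difference was 0.37 ± 0.24. The abundant fibrillar chains COL1A1 and COL1A2 had efficiency differences of 0.08 ± 0.58 and 0.23 ± 0.33. COL5A3 was the 1 collagen called in footprints, where it fell by 2.89 on the log2 scale (edgeR adjusted p = 0.0467), and the efficiency difference was −0.60 ± 0.70.

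Among other matrix genes 26 of 40 were above 0, and their median was 0.12. TNC, for the adhesion-modulating glycoprotein tenascin C, had 947 and 797 CPM of footprints in senescent cells, against 760 and 681 CPM in young cells, and 906 and 979 CPM of RNA in senescent cells, against 1554 and 1101 CPM in young cells. Footprints were higher and RNA lower, both without overlap, and the efficiency difference was 0.77 ± 0.31. FN1, fibronectin, had an efficiency difference of 0.61 ± 0.35 and THBS1, thrombospondin 1, one of 0.48 ± 0.52. ELN, elastin, had 32.0 and 24.8 CPM of footprints in senescent cells, against 98.2 and 91.5 CPM in young cells, and 31.7 and 38.0 CPM of RNA in senescent cells, against 136 and 185 CPM in young cells. It fell in both assays, by 1.74 in footprints (edgeR adjusted p = 0.0251) and by 2.21 in RNA (adjusted p = 0.00896), with an efficiency difference of 0.46 ± 0.39. POSTN, periostin, fell in footprints by 2.08 (adjusted p = 0.0467) and had an efficiency difference of −0.27 ± 0.53.

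**Figure D3:**
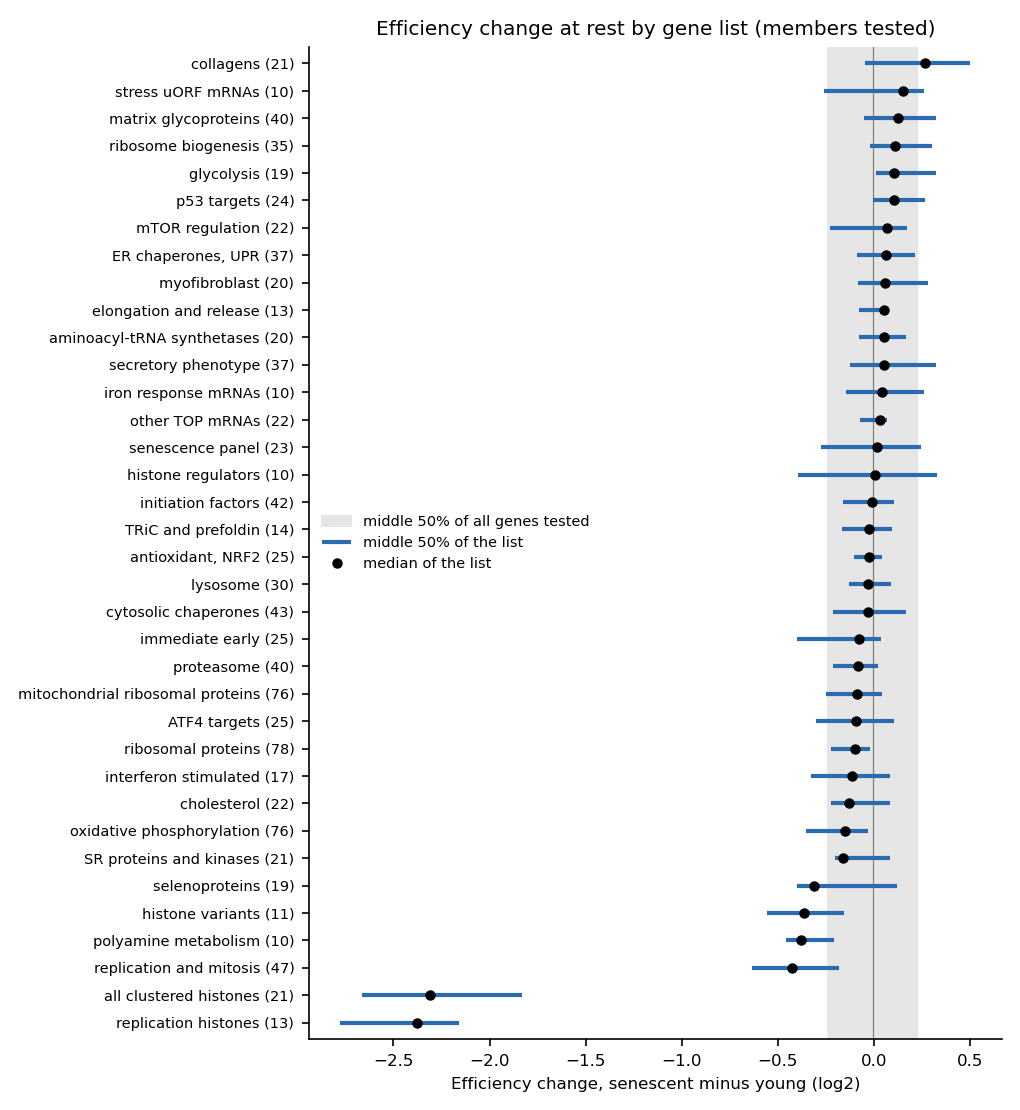
Efficiency change (x axis, log2 senescent minus young) for 36 gene lists, with the number of members tested in brackets; points are medians, bars run between the quartiles of the members and the grey band between those of all genes tested. The replication-dependent histones (−2.38) and the whole histone family (−2.31) lie far below the band, and the medians of the other lists lie between −0.43 and 0.27.

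Glycolysis enzymes had a median of 0.10 with 14 of 19 above 0. The glucose transporter gene SLC2A3 was the 1 member at an unadjusted p under 0.05 (0.287% of all genes in that direction). It had 110 and 87.2 CPM of footprints in senescent cells, against 59.4 and 59.3 CPM in young cells, and 68.4 and 66.0 CPM of RNA in senescent cells, against 75.05 and 58.5 CPM in young cells. Footprints were higher while RNA overlapped, and the efficiency difference was 0.72 ± 0.31. HK2, hexokinase 2, had an efficiency difference of 0.91 ± 0.45. Targets of p53, the factor that enforces arrest, had a median of 0.10 with 18 of 24 above 0, among them SESN1 at 0.72 ± 0.41 and MDM2 at 0.11 ± 0.54.

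The senescence panel had a median of 0.01 with 12 of 23 above 0, and the secretory genes a median of 0.05 with 21 of 37 above 0, or −0.11 without senescent footprint replicate 2. CDKN1A, the p53-induced CDK inhibitor p21, had 373 and 493 CPM of footprints in senescent cells, against 287 and 266 CPM in young cells, and 990 and 1438 CPM of RNA in senescent cells, against 578 and 684 CPM in young cells. Both assays were higher without overlap and the efficiency difference was −0.30 ± 0.43, or −0.0034 without senescent RNA replicate 2. CCND1, cyclin D1, had 1977 and 1759 CPM of footprints in senescent cells, against 969 and 965 CPM in young cells, and 2260 and 2401 CPM of RNA in senescent cells, against 1321 and 1210 CPM in young cells. Footprints rose by 0.95 ± 0.16 (edgeR adjusted p = 0.0273), the RNA difference was 0.88 ± 0.16 (adjusted p = 0.0578), and that in efficiency was 0.07 ± 0.22.

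LMNB1, lamin B1, which is commonly low in senescent cells, had 9.13 and 25.3 CPM of footprints in senescent cells, against 50.2 and 51.1 CPM in young cells, and 7.01 and 10.5 CPM of RNA in senescent cells, against 19.6 and 21.6 CPM in young cells. It was lower in both assays without overlap and the efficiency difference was −0.32 ± 0.76. IGFBP3, an insulin-like growth factor binding protein, had an efficiency difference of 0.99 ± 0.77. CXCL12, a chemokine, had an efficiency difference of −0.92 ± 0.62.

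**Figure D4:**
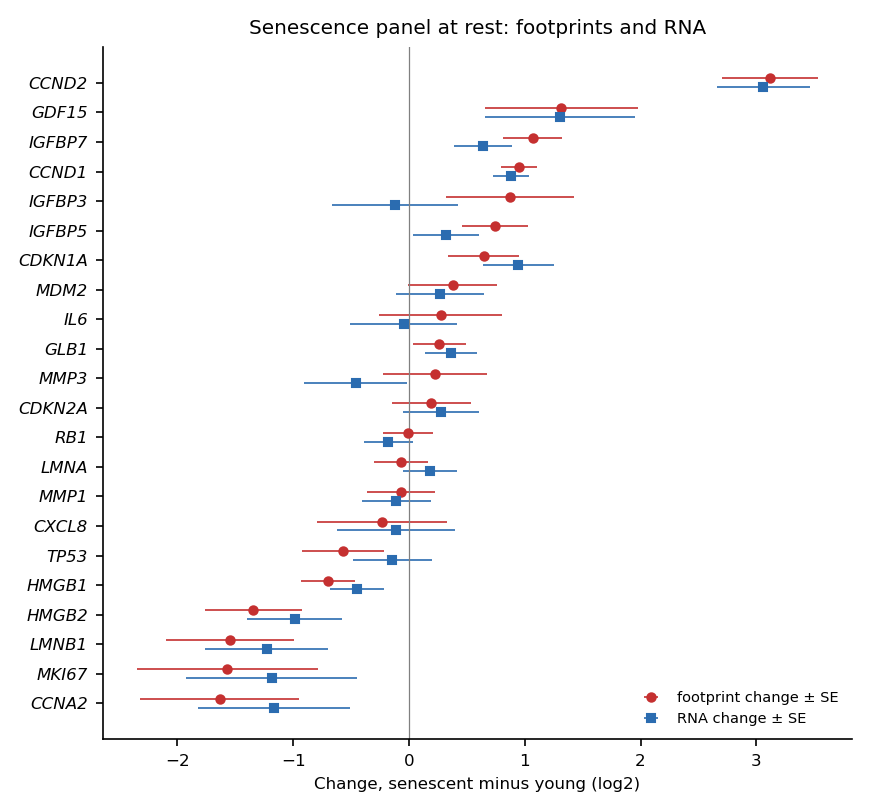
Footprint change (red circles) and RNA change (blue squares), log2 senescent minus young at rest with SE, for 22 of the 23 tested genes of the senescence panel, ordered by footprint change. CCND2 is highest in both assays (3.12 and 3.06), and LMNB1 lies low in both (−1.55 and −1.23).

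The 10 genes of smallest p on each side were taken from the 7923 with a mean of at least 10 CPM in each assay in 1 of the states or both, and none of them passed the adjusted threshold. Among those named in the text, HIST1H2AC in RNA, CES2 and BIVM-ERCC5 in footprints and MT1X in both assays reached that level only in senescent cells. FAM89B and TICAM2 in footprints and BIVM-ERCC5 in RNA reached it only in young cells. In the assay given, all of these entered through the state in which they were higher. CES2, a carboxylesterase, had 27.4 and 19.2 CPM of footprints in senescent cells, against 9.35 and 10.1 CPM in young cells, and 59.4 and 78.5 CPM of RNA in senescent cells, against 51.2 and 65.6 CPM in young cells. Footprints were higher without overlap, RNA overlapped, and the efficiency difference was 1.02 ± 0.35. MT1X, a metal-binding metallothionein, had an efficiency difference of 1.29 ± 0.50, PVR, the poliovirus receptor, one of 0.78 ± 0.33, the basement membrane gene NID2 one of 0.73 ± 0.29 and the focal adhesion gene VCL one of 0.53 ± 0.23.

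On the lower side, outside the histones and FTL, PLEC, which encodes the cytoskeletal linker plectin, had 134 and 146 CPM of footprints in senescent cells, against 283 and 256 CPM in young cells, and 302 and 483 CPM of RNA in senescent cells, against 350 and 383 CPM in young cells. Footprints were lower without overlap, RNA overlapped, and the efficiency difference was −1.04 ± 0.39. GLRX5, a mitochondrial glutaredoxin of iron-sulfur cluster assembly, had 9.54 and 14.5 CPM of footprints in senescent cells, against 21.0 and 21.1 CPM in young cells, with RNA overlapping, and had an efficiency difference of −0.97 ± 0.35. FAM89B had an efficiency difference of −1.36 ± 0.51, RPS19BP1 one of −1.07 ± 0.37 and the calcium-binding protein gene EFHD2 one of −0.85 ± 0.33.

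**Figure D5:**
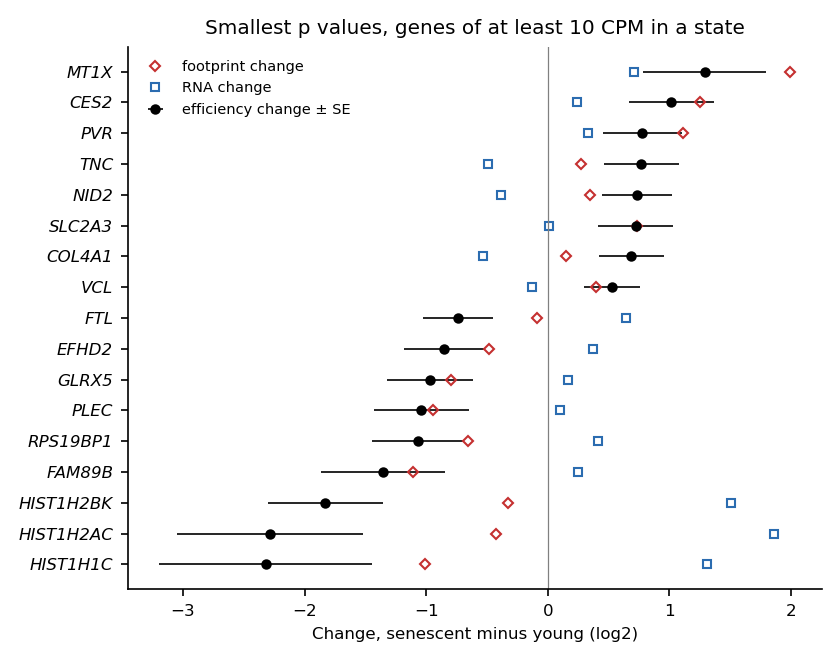
Efficiency change with SE (black), footprint change (red diamonds) and RNA change (blue squares), log2 senescent minus young at rest, for 17 of these genes, 8 higher and 9 lower, with a mean of at least 10 CPM in each assay in 1 of the states or both and more than 3 counts in every group. The changes run from 1.29 for MT1X to −2.32 for HIST1H1C, and among them HIST1H2AC, HIST1H2BK and HIST1H1C alone have RNA changes above 1.

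The other 17 lists, from chaperones and the proteasome to lysosomal and splicing genes, had medians from −0.16 to 0.11 and 0 called members among 419 tested. Of all genes tested, 0.00896% were called. Across the 10967 genes with a GC value (98.2% of those tested), efficiency difference had a Spearman correlation of −0.255 with GC content and of 0.308 with transcript length. The RNA change correlated with GC content at 0.463 and the footprint change at 0.130. These correlations are across genes, which are not independent replicates, and their part in the list medians was measured only by removing the GC trend, after which the histone median was −2.33.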

How the data were processed

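Gene-level expected counts were deposited by the authors for 16 libraries, and the values used were whole numbers, so rounding altered none. STAR, RSEM, Bowtie2 and the build hg19 are named in the submitters' processing notes; their roles and versions are not given there. TPM values, deposited by the authors in separate tables, served as an alternative scale and for ratios per length. Samples were grouped by state, treatment and assay from the labels.

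Genes had to pass edgeR's filterByExpr in each assay. One edgeR (4.0.16) quasi-likelihood model with 8 group means and TMM scaling within each assay was fitted to all 16 libraries in R (4.3.3). The efficiency difference is the footprint contrast (senescent minus young) minus the RNA contrast. SE was taken as the size of the log2 difference divided by the square root of F, which is approximate. P-values were adjusted by Benjamini-Hochberg over all 11166 genes, with a threshold of 0.05. With 2 libraries per group, 8 residual degrees of freedom were left.

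Gene lists and members were chosen with earlier results of these data known, and the lists of histone variants and histone regulators after the values were seen. The genes named were the 10 of smallest p on each side with a mean of at least 10 CPM in each assay in 1 of the states or both, the senescence panel, and members of the lists. Groups with 3 or fewer counts are given as counts. GC content, transcript length and stem-loops came from GENCODE 29 (GRCh38), matched by name. The model was also run on simulated counts with known changes, and the outcome is not reported here. Alternatives used DESeq2 (1.42.0), limma (3.58.1), other filters and scalings, a replicate block, removal of the GC trend, and each library left out in turn. Summing genes that share reads was added after the data had been seen. A few genes are not reported here, and 1 of the senescence panel is left out of its plot.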

Additional observations from a re-analysis of the deposited data

Results flagged for a closer look

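BOLA2B was the 1 gene whose efficiency difference between senescent and young cells differed between rest and heat shock, by edgeR's test of the difference itself (adjusted p = 0.0287). Under heat shock its efficiency difference was −0.34. At rest its young RNA libraries were at 0 counts, and its footprint counts were identical to those of BOLA2. The part of reads shared between the copies was not tested beyond summing them, after which no gene was called at rest.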

How the results depend on the processing

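The design was computed under 30 alternatives, 16 of which left out 1 library. The count of genes called for efficiency (1 with edgeR) was 5 with DESeq2, 2 with limma voom and 0 with limma on log2(TPM + 1), 2 without a filter on low counts, 0 with a filter at 10 CPM in both assays, 5 with the 8 resting libraries alone and 0 with genes that share reads summed. The footprint count (28) was 198 with DESeq2, 192 with voom, 46 on log2(TPM + 1), 16 with library size as the only scaling, 66 after removal of the GC trend, 13 with genes that share reads summed and 0 with the young footprint libraries summed as 1 sample. The RNA count (13) was 102 with DESeq2, 28 with voom, 7 on log2(TPM + 1), 42 after removal of the GC trend and 4 with the young footprint libraries summed. With 1 library left out the counts ranged from 1 to 21 for efficiency, 0 to 297 for footprints and 1 to 22 for RNA. The cause of these shifts was not tested.

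The labels do not say what a shared replicate number marks. Within RNA the replicate differences of the groups correlated at 0.562 to 0.761, and within footprints at −0.042 to 0.317. A replicate block within each assay gave 6 calls for efficiency, 259 for footprints and 141 for RNA, and with removal of the GC trend 6, 278 and 110. A replicate block by culture, across assays, gave 2 calls for efficiency.

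The histone median stayed between −2.62 and −2.27 under the alternatives that kept all libraries. On log2(TPM + 1), where the median of all genes was 0.09, list medians were 0.0060 for cytosolic and 0.010 for mitochondrial ribosomal proteins, 0.19 for iron response mRNAs, −0.20 for selenoproteins, −0.048 for oxidative phosphorylation, 0.38 for collagens, 0.21 for other matrix genes, 0.26 for glycolysis and 0.18 for p53 targets. The iron response median was 0.16 with the 10 CPM filter. Removal of the GC trend gave −0.18 for selenoproteins and 0.16 for p53 targets, and with the replicate block −0.17 and 0.16. Efficiency turned sign for RPL4 (0.027), RPL7A (0.051) and COL5A3 (0.32) on log2(TPM + 1), and for CCND2 after removal of the GC trend (−0.0041, and −0.010 with the block).

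With 1 library left out, medians ranged from −0.17 to 0.10 for other TOP mRNAs, −0.029 to 0.18 for stress uORF mRNAs, −0.037 to 0.23 for iron response mRNAs, −0.43 to −0.059 for selenoproteins, −0.17 to −0.034 for mitochondrial ribosomal proteins, 0.075 to 0.37 for collagens, 0.011 to 0.17 for other matrix genes, 0.073 to 0.25 for glycolysis, 0.020 to 0.16 for p53 targets and −0.11 to 0.28 for secretory genes. Of the 73 genes whose efficiency difference is given, 31 kept their sign but moved by over 1.5 times without 1 library or another, and 17 turned sign. These ranged from −0.58 to 0.17 (H3F3B), −0.15 to 0.35 (SLBP), −0.9997 to 0.24 (RRM2), −0.13 to 0.012 (RPL7A), −0.26 to 0.0039 (EEF1A1), −0.064 to 0.59 (EPRS), −0.70 to 0.077 (IFRD1), −0.064 to 0.48 (SMS), −0.18 to 0.29 (ATP5A1), −0.33 to 0.65 (COL1A1), −0.055 to 0.92 (THBS1), −0.75 to 0.081 (POSTN), −0.19 to 0.49 (MDM2), −0.017 to 0.15 (CCND1), −0.23 to 0.42 (CCND2), −1.24 to 0.23 (LMNB1) and −0.094 to 1.60 (IGFBP3). The 2 libraries per group and a footprint depth of 4581141 to 9104077 counts limit what differences could be called.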
